A study of Nothobranchius furzeri with 20 samples.

Results

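The genes described here had fewer reads in skin of 9-week-old killifish given rotenone at 1% of LC50 than in skin of fish of that age given either 0.1% or 10%, so that their level dipped at the middle dose. They number 65 among the 26739 genes listed. They were chosen by measured values: reads per gene were divided by the library total and multiplied by 1000000 (CPM), and log2(CPM + 1) was taken. A gene was kept if its mean CPM over 20 libraries was at least 1, if the highest of the 5 libraries at 1% and 9 weeks lay below the lowest of the 10 libraries at 0.1% and 10%, and if the range at 27 weeks was not wholly above or below all 15 younger libraries. The 27-week condition removed 0 genes, and a limit of 200 genes was not reached. Of 17060 genes with a mean CPM of at least 1, these 65 are 0.381%; the dip itself is therefore a description of the choice and not a finding.

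The fish are male turquoise killifish, Nothobranchius furzeri, of the strain MZM-04/10p, and the RNA is from skin. The 4 groups of 5 libraries are 1% rotenone at 27 weeks of age, and 0.1%, 1% and 10% at 9 weeks, each dose being a percentage of LC50, the concentration lethal to the median animal. Every group received rotenone, and untreated fish are not analysed here. The labels do not say that each library is a separate fish, so p-values refer to variation among these libraries, which may in part be technical. Reads at 0.1% were deposited in a separate table from those at 1% and 10%, and a difference between tables cannot be told apart from one between 0.1% and the other doses.

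Rotenone blocks complex I, the enzyme through which NADH feeds electrons into the mitochondrial respiratory chain, and at high dose it lowers ATP production and raises reactive oxygen species. Skin of fish is a layered tissue in which a living epidermis with mucous cells covers a dermis with scales, pigment cells, vessels and nerves. RNA of a whole piece of skin is a mixture of all of these, and fewer cells of a type and less RNA per cell cannot be told apart. The files give genes by identifier alone and 0 identifiers matched the gene table of the assembly NfurGRZ-RIMD1, so neither names, roles nor sequences can be given, and the tissue label could not be checked against marker genes.

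Library totals ran from 21770720 to 29017737 reads on genes. Each member had reads in all 20 libraries, the lowest count being 4, and the median member had between 127 and 667 reads in a library. Replicates 1 and 4 at 0.1% lay apart from the others on the first principal component, at 114.6 and 98.0, against 14.4 for the next library. In 467 of the 17060 genes with a mean CPM of at least 1, both exceeded replicates 2, 3 and 5 at 0.1% by a factor of 8 or more. Of these genes 0 are members, which is near the share over all genes, and nothing is read from it. Without both libraries 71 genes met the conditions, all 65 members among them. Leaving out libraries at 0.1% can only ease the no-overlap condition. That members still met it was therefore fixed by the choice, and nothing is read from it.

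Together the 65 genes took 0.204% ± 0.0533 of all reads at 1% and 27 weeks (SD, n = 5). At 9 weeks they took 0.460% ± 0.161 at 0.1%, 0.116% ± 0.0338 at 1% and 0.283% ± 0.0398 at 10% (SD, n = 5 each). The single libraries at 27 weeks lay at 0.188%, 0.191%, 0.292%, 0.148% and 0.200%. At 0.1% they lay at 0.465%, 0.329%, 0.269%, 0.629% and 0.606%, and at 10% at 0.281%, 0.304%, 0.245%, 0.338% and 0.245%. At 1% and 9 weeks 4 libraries lay between 0.0912% and 0.109%, and replicate 3 lay at 0.175%. The 27-week libraries thus overlapped those at 0.1% and 10% only through replicate 3, at 0.292%. They overlapped those of 1% at 9 weeks only through replicate 4, at 0.148%, against replicate 3 of the younger group, at 0.175%. At 9 weeks the summed share of 1% lay below the other doses by the choice of the genes.

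**Figure D1:**
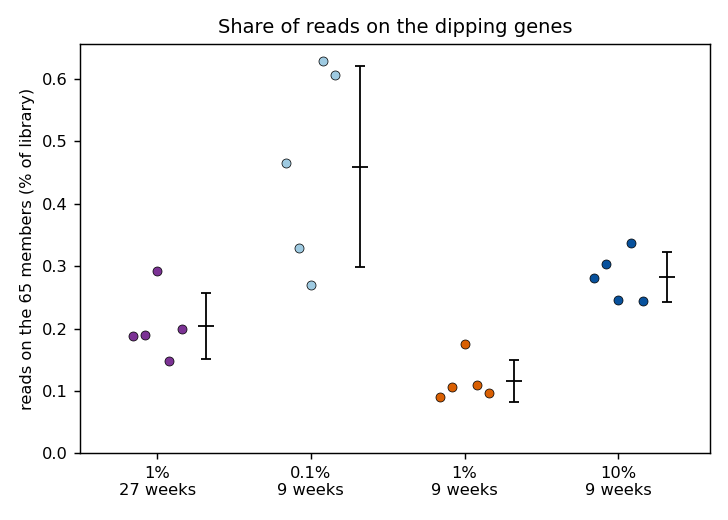
Reads on the 65 members as a percentage of all reads of a library (vertical axis), by group; points are libraries, and the bar beside them is the mean ± SD (n = 5). The 1% libraries at 9 weeks lie lowest, by the choice of the genes, with replicate 3 at 0.175% above its 4 partners, and the 27-week libraries lie between 0.148% and 0.292%.

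The depth of the dip, taken as the smaller of the differences in mean log2(CPM + 1) of 0.1% and of 10% over 1%, ran from 0.30 to 3.53 with a median of 1.00. It was at least 1 in 32 members and at least 2 in 4. In mean CPM, the level at 0.1% was a median of 3.05-fold that at 1% (1.30-fold to 18.0-fold), and the level at 10% was a median of 2.20-fold (1.36-fold to 8.29-fold). The mean CPM of members had a median of 13.49 and quartiles of 5.56 and 35.3, and ran from 1.22 to 384.8. For all genes with a mean CPM of at least 1 the median was 14.2 and the quartiles 5.16 and 35.6. Many met the no-overlap condition narrowly. The gap between the highest 1% library and the lowest library of the other doses was a median of 0.15 log2 units and exceeded 0.1 in 40 members, with the largest at 0.90. Just inside, the gaps were 0.0031, 0.0088 and 0.0089, and just outside they were -0.0042, -0.0106 and -0.0109.

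**Figure D2:**
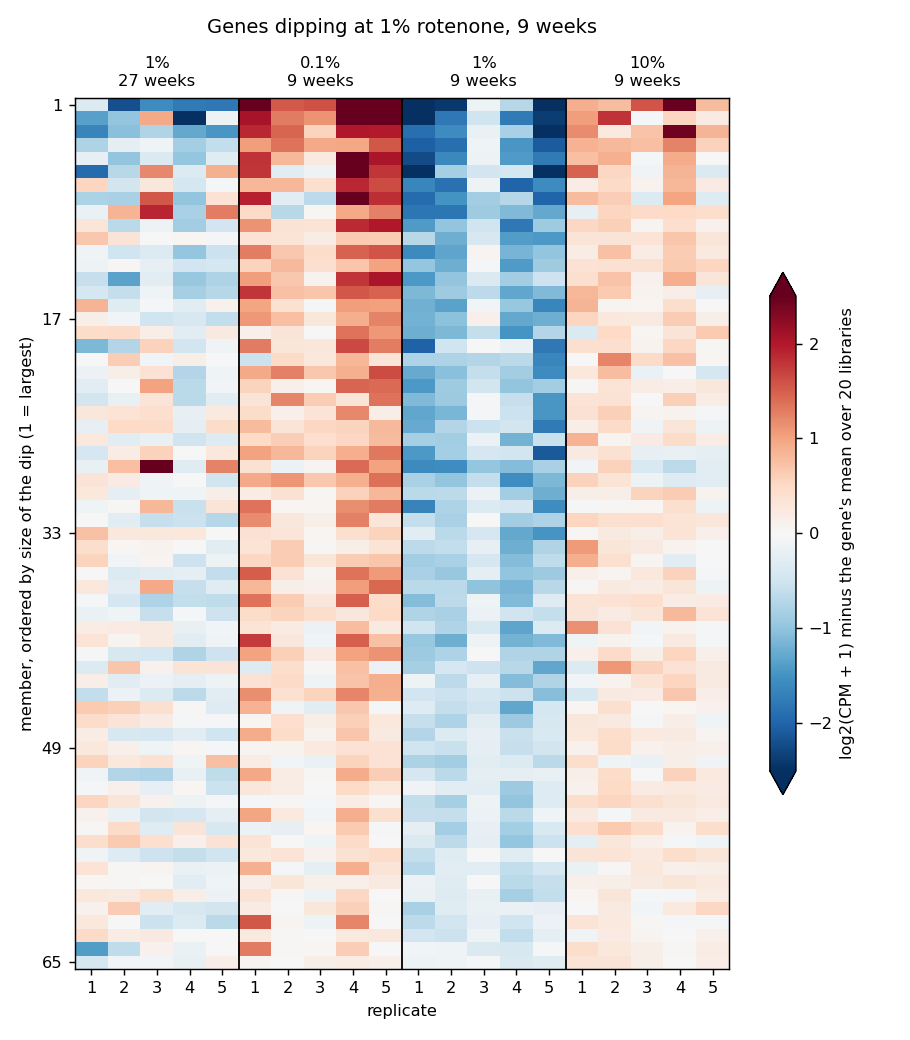
Level of each member (rows, largest dip on top) in each library (columns, 5 replicates per group), as log2(CPM + 1) minus the mean of the gene over 20 libraries; colours end at ±2.5, and values beyond take the end colour. The 1% libraries at 9 weeks are below the gene's mean almost throughout, least in replicate 3, and the 27-week libraries are mixed.

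The gene with the deepest dip, Nfu_g_1_023370, had 48.1, 12.6, 19.9, 17.2 and 16.9 CPM at 27 weeks. At 9 weeks it had 509, 179.9, 187, 391 and 485 CPM at 0.1%, then 3.55, 10.6, 56.2, 37.1 and 3.26 CPM at 1%, and 116, 105, 184, 406 and 106 CPM at 10%. Older fish at 1% were therefore at 22.9 ± 14.3 CPM and younger fish at 1% at 22.1 ± 23.53 CPM (SD, n = 5 each), with overlapping libraries. All 5 libraries at 27 weeks lay below every library at 10% and at 0.1%, with a log2 difference of -3.27 (SE 0.75) from 10% and of -4.03 (SE 0.72) from 0.1%. Every younger library helped to choose the members, so the differences of 27 weeks from 9 weeks are given for single genes as descriptions, with edgeR's log2 change and its SE and no test. The difference between 10% and 0.1%, -0.76 (SE 0.64, edgeR quasi-likelihood test, adjusted p = 0.528 by Benjamini-Hochberg), was not beyond the spread. Libraries of both these doses also took part in the choice, so this p-value is a description too.

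Nfu_g_1_012981 took the most reads of all members, a rank in CPM that also depends on transcript length. It had 281, 338, 671, 211 and 320.5 CPM at 27 weeks. At 9 weeks it had 495, 369, 346, 919 and 902 CPM at 0.1%, 123, 179.9, 245, 170.04 and 183 CPM at 1%, and 345, 427, 381, 377 and 410.4 CPM at 10%. Its libraries at 10% were close together (388 ± 31.8 CPM) and those at 0.1% far apart (606 ± 284 CPM; SD, n = 5 each), replicates 4 and 5 lying above all other libraries of the gene. Its log2 difference of 27 weeks was 0.98 from 1% at 9 weeks (SE 0.25), -0.35 from 10% (SE 0.25) and -0.85 from 0.1% (SE 0.29). The 27-week range overlapped that of every dose.

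Nfu_g_1_022296 was the member highest at 27 weeks relative to 1% at 9 weeks. It had 42.6, 82.9, 293, 39.2 and 117 CPM at 27 weeks, all above the 15.4, 15.97, 24.3, 22.45 and 27.4 CPM at 1% and 9 weeks. The other doses had 64.2, 44.2, 51.3, 132 and 99.2 CPM at 0.1%, and 46.6, 73.6, 37.2, 30.8 and 40.4 CPM at 10%. At 27 weeks the gene was thus within the range of 0.1% in 2 of 5 libraries and above every 10% library in 3 of 5. The gene was named for its log2 difference of 27 weeks from 1% at 9 weeks, 2.41 (SE 0.48). The log2 difference of 27 weeks was 1.08 against 10% (SE 0.46) and 0.46 against 0.1% (SE 0.44). The sign of the second turned to -0.24 without replicate 3 at 27 weeks, and without that library the first was 0.40.

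At the opposite end, and named for that, was Nfu_g_1_015678, which at 1.22 CPM over all libraries is also the member with the fewest reads. It had 1.02, 0.721, 0.512, 0.435 and 0.523 CPM at 27 weeks. At 9 weeks it had 1.59, 1.73, 1.34, 1.81 and 1.96 CPM at 0.1%, 0.428, 0.740, 1.17, 0.754 and 1.15 CPM at 1%, and 1.70, 1.73, 1.57, 1.93 and 1.67 CPM at 10%. Both groups of 1%, old and young, lay wholly below both other doses and overlapped each other (log2 difference -0.43, SE 0.29). The log2 difference of the older fish was -1.67 from 10% (SE 0.29) and -1.52 from 0.1% (SE 0.27).

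**Figure D3:**
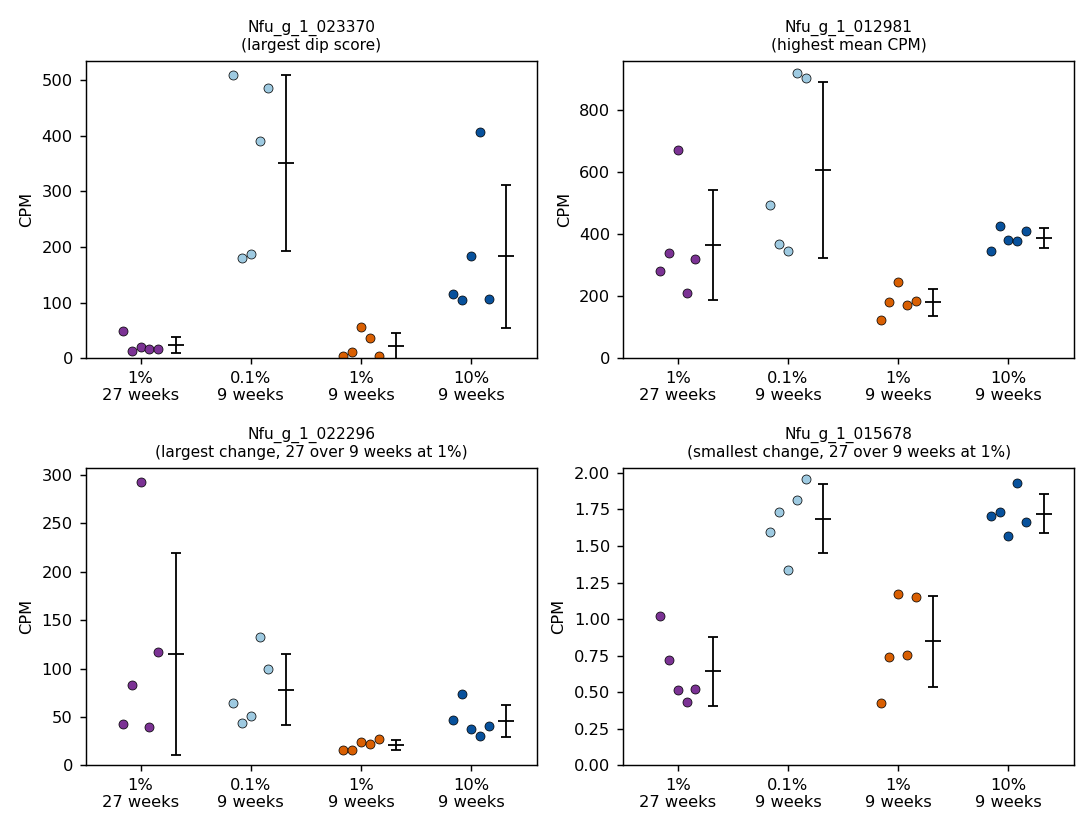
CPM (vertical axes, linear from 0) of 4 members by group; points are libraries, and the bar beside them is the mean ± SD (n = 5), cut off at 0 where it reaches below. At 27 weeks Nfu_g_1_023370 and Nfu_g_1_015678 lie with the 1% libraries at 9 weeks, while Nfu_g_1_012981 and Nfu_g_1_022296 reach the range of 0.1% and 10%.

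The members' levels at 1% in older fish were set on a scale between the younger groups. The younger libraries were chosen as low at 1% and high at the other doses, which by itself favours 27-week values between them. On a scale where 0 is the mean of 1% at 9 weeks and 1 is the midpoint of the means at 0.1% and 10%, in log2(CPM + 1), the 27-week mean had a median place of 0.58, from -0.44 to 1.52. It was below 0.25 in 14 members, between 0.25 and 0.75 in 31, and above 0.75 in 20, of which 8 exceeded 1. The 4 deepest dips were in the lower part, at 0.16, 0.32, 0.068 and 0.39. The scale divides by the distance from 1% to that midpoint, which is large where the dip is deep. Low places of deep dips are therefore favoured by the scale, and nothing is read from them. The 5 libraries at 27 weeks lay above all 5 at 1% and 9 weeks in 20 of 65 members (3.73% of all genes), and below all 10 at 0.1% and 10% in 14 other members (0.58% of all genes). In 31 members they overlapped both sides. Without replicate 3 at 1% and 9 weeks, the first number was 39. Leaving out a library of that group can only raise or keep this number. With library totals scaled by edgeR's relative log expression (RLE) factors the first was 18 and the second 22. Shares over all genes were not computed for these settings, so nothing is read from the shifts.

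**Figure D4:**
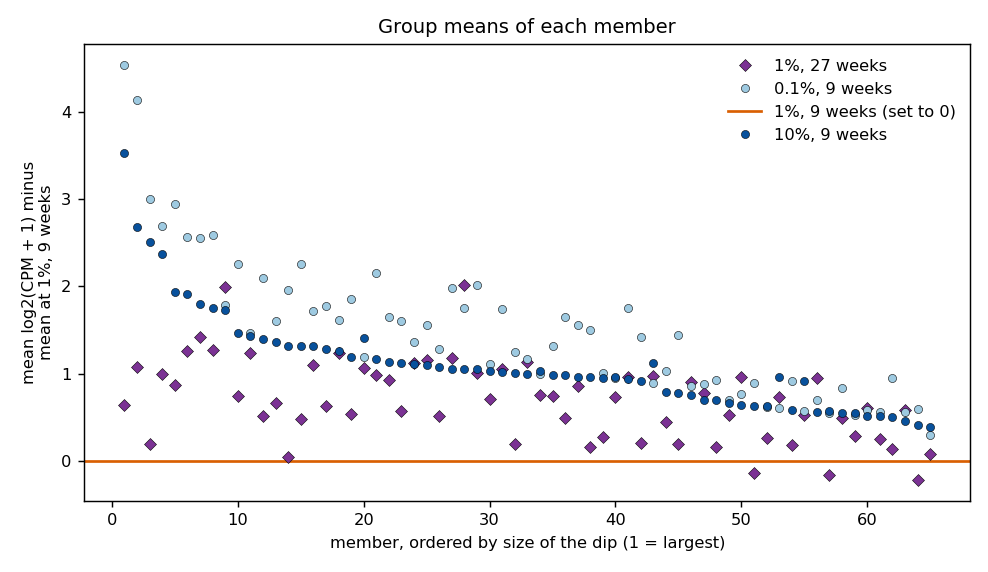
Mean log2(CPM + 1) of each group minus the mean at 1% and 9 weeks (vertical axis, 0 being that mean), for the 65 members in order of the size of the dip. The 27-week means (diamonds) spread from just below 0 to above the other doses, and those of the 4 deepest dips lie far below 0.1% and 10%.

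All 65 members passed the filter of the fits across all genes. At 27 weeks 27 members were lower than at 10% and 9 weeks and 0 were higher (edgeR, adjusted p under 0.05). Of all 18473 genes tested, 5.27% were lower and 590 were higher. The median log2 change was -0.63 over members and -0.03 over all genes tested. The number of members called was 17 without replicate 1 or 2 at 10%, and 14, 15, 12 and 13 without replicates 2, 3, 4 and 5 at 27 weeks. Of all genes, 601 or 696, and 304, 377, 377 and 289, were lower in these fits, against 974 with all 15 libraries. Against 0.1% at 9 weeks, 34 members were lower and 0 higher at 27 weeks, with 7.84% of all 18808 genes tested lower and 1020 higher. The median log2 change there was -0.91 over members and -0.05 over all genes. These comparisons share the 27-week libraries, and the libraries at 0.1% and 10% took part in the choice as the high side, which favours lower values at 27 weeks.

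Against 1% at 9 weeks, the same dose in younger fish, 24 members were higher at 27 weeks and 0 lower. Of all 18473 genes tested, 2.08% were higher and 444 were lower. The median log2 change was 0.71 over members and -0.02 over all genes, and 61 members had a positive value. Since the choice took genes low in these younger libraries, the direction is favoured by the choice and nothing is read from it. Which libraries were in the fit moved this count strongly, and with it the count of all genes called higher, 385 with all 15 libraries. Leaving out replicate 1, 2, 3, 4 or 5 at 9 weeks gave 12, 0, 37, 17 or 16 members. Of all genes, 148, 10, 885, 204 or 206 were then higher. Leaving out replicate 1, 2, 3, 4 or 5 at 27 weeks gave 5, 4, 8, 21 or 3 members, and 44, 39, 102, 234 or 27 of all genes. Fitting the 10 libraries of these groups alone gave 2 members and 49 of all genes.

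The difference between 10% and 0.1% was not itself a condition of the choice, but the libraries of both doses took part in it. Each had to lie above every library of younger fish at the middle dose. The values and p-values of members below are therefore descriptions and not tests free of the choice. Of the 65 members 0 passed an adjusted p of 0.05 with edgeR, as did 0 of all genes (0%), and the lowest adjusted p of a member was 0.134. At an unadjusted p under 0.05, 14 members were lower at 10%, where 11.2% of all genes were, and 2 were higher, where 9.3% were. DESeq2 called 5 members lower and 0 higher, with 2.76% of all 18808 genes lower and 410 higher. The fitted log2 change was negative in 48 members, with a median of -0.22 over members and of 0.00 over all genes tested.

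The differences of 1% from the other doses chose the genes, and nothing is read from their counts. At 1%, 61 members were lower than at 10% (4.22% of all genes tested were lower) and 64 were lower than at 0.1% (10% of all genes; edgeR, adjusted p under 0.05). The fit scales libraries by TMM factors, a trimmed mean of gene ratios, and not by totals as the choice did.

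Of the libraries left out in turn, replicate 3 at 1% and 9 weeks moved the number of dipping genes most. Scaling moved that number too, as given below. Replicate 3 at 1% had the highest level of its group in 47 of the 65 members. The share over all genes was not computed, so nothing is read from this count. When each 1% library in turn was left out of the choice, 75, 69, 328, 70 and 76 genes met the conditions without replicates 1 to 5, of which at most 200 were taken. Among the genes taken without a library, those in which it lay below all 10 libraries at 0.1% and 10% are members by construction. The shares below therefore follow from the choice and are no separate evidence of the dip. They were 86.7% without replicate 1, which lay below all 10 in 10.9% of all genes, and 94.2% without replicate 2 (7.83% of all genes). They were 92.9% without replicate 4 (9.06% of all genes) and 85.5% without replicate 5 (13.9% of all genes). Without replicate 3 the share was 29.5% of the 200 genes taken, and that library lay below all 10 in 2.11% of all genes. Only this choice was cut by the limit of 200, so its share is not of a like set with the others.

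**Figure D5:**
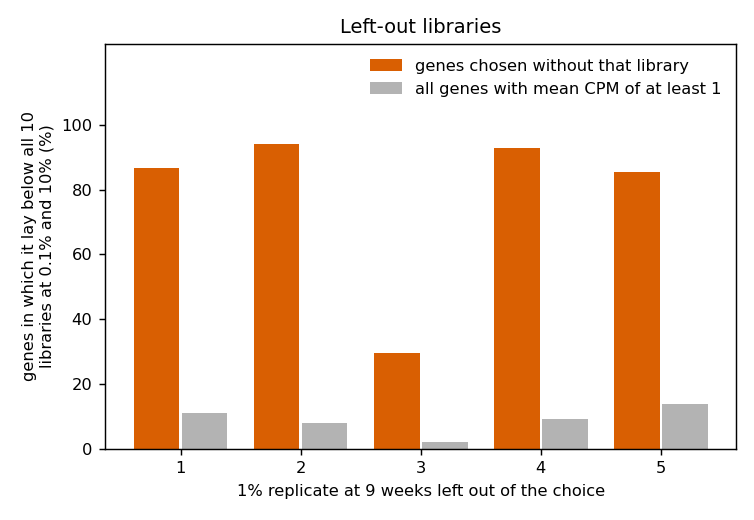
Percentage of genes in which a 1% library at 9 weeks lay below all 10 libraries at 0.1% and 10% (vertical axis), for the genes chosen without that library and for all genes with a mean CPM of at least 1, by the replicate left out. Replicate 3 stands at 29.5% of the 200 genes taken, the only choice cut by that limit, and the other 4 lie between 85.5% and 94.2%.

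Levels of the members tended to vary together between replicates of a group. After the group mean was taken from each value, the median correlation of a pair of members across the 20 libraries was 0.34 and 87.0% of the 2080 pairs were positive. For all pairs of genes with a mean CPM of at least 1 the median was 0.09 and 60.2% were positive. The points share libraries and their scaling, and the 9-week libraries took part in the choice. These values and the SDs below are therefore descriptions. Members spread more between replicates than the median gene at 27 weeks (median SD 0.31 against 0.21 log2 units for all genes) and at 0.1% (0.43 and 0.35), and at 1% and 9 weeks (0.37 and 0.28), and about as much at 10% (0.24 and 0.24).

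The conditions turned upwards, with every 1% library at 9 weeks above those at 0.1% and 10%, were met by 774 genes, against the 65 that dipped. How unequal the numbers are depends on scaling. With TMM factors 226 genes dipped and 310 peaked, and with RLE size factors 233 dipped and 309 peaked. Division by library totals put the median gene 0.16 log2 units higher at 1% than at 10%, and TMM put it at -0.03; between 10% and 0.1% the values were -0.11 and 0.01. Of the 65 members, 61 were among the 200 genes taken with TMM factors.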

How the data were processed

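RNA of skin was sequenced in 20 libraries from a TruSeq RNA kit, per the labels' protocols. The submitters' processing notes name featureCounts 1.4.6-p4, STAR 2.4.1d and CASAVA 1.8.2. Build, annotation and strandedness were not given in the sources used here. Counts deposited by the authors are unnormalized whole numbers per gene. Of the libraries used here, the 15 at 1% and 10% are in a first table and the 5 at 0.1% in another. The authors also deposited RPKM values, used in 1 alternative. Columns were matched by title, and 10 count columns and 9 RPKM columns that match no sample described here were not used.

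CPM values are reads over column totals. Fits used R 4.3.3 with edgeR 4.0.16 (TMM, filterByExpr, glmQLFit and glmQLFTest, 1 mean per group, two-sided, Benjamini-Hochberg over all genes tested): the 15 libraries of the first table, or all 20 where 0.1% was compared. Each SE was derived from the log2 change and the F value. The rule for named genes took the deepest dip, the highest mean CPM, and the largest and smallest change of 27 over 9 weeks at 1%. The members, rules and tests were chosen with earlier results of these data known. Alternatives were DESeq2 1.42.0, upper quartile and RLE normalization, a filter of only 1 read, other sets of libraries in the fit, other CPM floors (0.1 and 5), a pseudocount of 0.1, RPKM in place of CPM, no 27-week condition, and leaving out each library; leaving out replicates 1 and 4 at 0.1% together was added after seeing the data. Replicate numbers follow the order of the samples and pair nothing. Replicates within a group were compared by chi-square over genes, and the lowest value divided by its degrees of freedom was 32.6. No pair within a group therefore differed only by repeated sequencing of 1 library. Whether libraries came from the same fish cannot be told from this. Scripts were tested on simulated data. Reads may be shared among overlapping genes and paralogs.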

Additional observations from a re-analysis of the deposited data

Results flagged for a closer look

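Of 29 groups of 5 values examined, 6 had a highest or lowest value farther from the rest than Dixon's limit for 5 samples, which chance passes in about 1 in 20 groups. The members were chosen from the 9-week libraries, so that rate does not hold for measures of members there. In 3 of the 6 the library was replicate 3 at 1% and 9 weeks, and these 3 measures overlap in the genes they use. Reads on the members took 0.175% of that library, against 0.0912% to 0.109% in the other 4. Its median log2 deviation from the group mean over members was 0.43, against -0.16 to -0.09 in the other 4. It lay below all 10 libraries at 0.1% and 10% in 29.5% of the 200 genes taken without it. The shares were 85.5% to 94.2% for the other 4, whose choices were not cut at 200. These shares follow from the choice. The remaining 3 concern single genes. Nfu_g_1_023370 was at 406 CPM in replicate 4 at 10%, against 105 to 184 CPM in the other libraries of that dose. The same gene was at 48.1 CPM in replicate 1 at 27 weeks, against 12.6 to 19.9 CPM. Nfu_g_1_012981 was at 671 CPM in replicate 3 at 27 weeks, against 211 to 338 CPM.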

How the results depend on the processing

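The number of genes that dip was 226 with TMM factors and 233 with RLE size factors, against 65 with library totals; it ran from 49 to 67 with the other CPM floors, RPKM (62 genes, 41 of them members), a pseudocount of 0.1 and no 27-week condition. Leaving out 1 library gave 65 to 328 genes. Some of these outcomes were fixed in advance. The conditions rest on the order of values, which a pseudocount cannot change. A higher floor can only remove genes, and leaving out a 9-week library can only ease the no-overlap condition. Members called at 27 weeks against 1% at 9 weeks ran from 0 to 37 when 1 library was left out and were 2 with the 10 libraries alone. Of all genes, 10 to 885 were higher when 1 library was left out, and 49 with the 10 libraries alone. Members called against 10% ran from 12 to 26 when 1 library was left out, with 289 to 1102 of all genes lower. Against 0.1% members called ran from 25 to 37, with 462 to 1811 of all genes lower. Members called for 10% against 0.1% were 5 with DESeq2 and 0 in the other alternatives. With TMM factors replicate 3 at 1% lay below all 10 libraries in 53% of the 200 genes taken without it (6.01% of all genes). With library totals the share was 29.5% (2.11% of all genes). The 200 were taken from 660 genes with TMM factors and from 328 with totals, so these shares are not of like sets. Peaking genes numbered 345 with RPKM and 1763 without replicates 1 and 4 at 0.1%. The log2 change of Nfu_g_1_023370 at 27 weeks against 1% at 9 weeks, 0.06, ran from -0.41 to 0.72 with 1 library left out, and that of Nfu_g_1_022296 against 0.1% from -0.24 to 0.69. Causes were not tested. No paired analysis was possible because the labels give no replicate numbers shared between groups. The median log2 change over members for 10% against 0.1%, -0.22, kept its negative sign in every alternative run, from -0.30 to -0.16. The median SE of a single member was 0.26, about as large. It is not the SE of the median over members, which was not computed. The alternatives drew on the same libraries. Genes with few reads, such as Nfu_g_1_015678, are limited by depth.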

Other observations

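The library of the other doses that came closest to the 1% group was replicate 3 at 0.1% in 16 members and replicate 5 at 10% in 15 members, and replicate 4 at 0.1% in 0 members. Replicates 1 and 3 at 10% came closest in 10 and 9 members. These counts use the values that chose the members, and shares over all genes were not computed, so nothing is read from them.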
